A study of Mus musculus with 10 samples.

Results

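MHC class I molecules display peptides from inside the cell to CD8+ T cells, and are read by inhibitory receptors of NK cells. Each is a heavy chain, encoded in the mouse by an H2 gene on chromosome 17, held at the cell surface by the light chain β2-microglobulin (B2m). H2-K1 and H2-D1 are the classical heavy chains, the H2-Q, H2-T and H2-M genes are non-classical, and Nlrc5 encodes a transactivator that has no DNA-binding domain of its own and is recruited to class I promoters by the factors bound there. Leukaemia cells that lose class I are poor targets for CD8+ T cells, and the study asked how passage through an immunocompetent host shapes the leukaemia's transcripts. The set held 10 genes taken by name from the 38215 genes of the deposited table: B2m, H2-K1, H2-D1, H2-Q4, H2-Q6, H2-Q7, H2-T22, H2-T23, H2-M3 and Nlrc5. All 10 were found, and all 10 were among the 13966 genes that passed the filter on low counts.

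The cells were GFP+ splenocytes of mice with acute myeloid leukaemia (AML). Lineage-depleted mouse bone marrow had received AML1-ETO, a fusion of the RUNX1 and RUNX1T1 transcription factors, and NrasG12D from a retrovirus that also carries GFP, and the transduced cells had first formed leukaemias in Rag2-/-γc-/- hosts, in which T, B and NK lymphocytes are missing. GFP+ spleen cells of these were passed to 5 immunocompetent C57BL/6J secondary recipients, numbered 1, 3, 4, 5 and 6 in the labels, or to 5 Rag2-/-γc-/- secondary recipients, numbered 7 to 11. All 10 leukaemias had therefore been through a Rag2-/-γc-/- host once, and the groups differ in the second host. The labels as used here give no age, sex or marrow donor strain, nor how many primary leukaemias supplied the recipients, so a p-value reflects the variation from recipient to recipient, and some recipients may share a primary leukaemia.

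Libraries held 28157745 to 62461126 expected counts. On the first principal component the C57BL/6J libraries lay between -57.5 and -20.2, Rag2-/-γc-/- libraries 7, 8 and 9 between 49.6 and 61.6, and Rag2-/-γc-/- libraries 10 and 11 at -4.88 and 8.73, so that the Rag2-/-γc-/- group was not homogeneous, and results that depend on either subset are given without it. Of markers of the leukaemia, the pan-leukocyte gene Ptprc averaged 657 CPM (counts scaled to the library total, with TMM factors) in C57BL/6J and 512 CPM in Rag2-/-γc-/- recipients, and the myeloid factor gene Spi1 388 and 378 CPM. The granule genes Mpo and Elane, which mark immature granulocytic blasts, stayed under 1 CPM in every library. Of the 14 markers of leukaemia identity, 13 were tested, and 2 were called higher and 5 lower in C57BL/6J recipients, against 3.32% and 4.47% of all tested genes. The counts were 4 and 7 without Rag2-/-γc-/- libraries 10 and 11 (19.3% and 17.4% of all tested genes), and 2 and 0 without 7, 8 and 9 (1.01% and 0.870%). The leukaemias of the groups thus differed in such markers beside the class I genes. Higher were Kit (4.88 against 0.252 CPM in C57BL/6J and Rag2-/-γc-/- recipients) and Flt3 (21.4 against 4.75 CPM), and lower were Cebpa (3.16 against 22 CPM), Cd34 (129 against 336 CPM), Cd33, Csf1r and Nras, the last 3 losing their calls in 4 to 8 of 10 fits that left out 1 library. The part of these differences in the class I results was not tested. Over all tested genes, edgeR's quasi-likelihood test called 464 (3.32%) higher and 624 (4.47%) lower in C57BL/6J than in Rag2-/-γc-/- recipients at an adjusted p under 0.05, with a median log2 fold change of 0.00.

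The promoters are shown first because NLRC5 acts through elements that class I promoters share. H2-Q6 and H2-Q7, the most alike pair, also fell on different sides of the test threshold (their difference is tested below). The motifs searched are not the NLRC5 module as such, since sites for the RFX factors were not among them. Sequences are from RefSeq on build GRCm38.p6, where 9 of the 10 genes were matched. The search covered 4 short motifs on both strands of the 250 bases before the start of transcription, with letters chosen in view of these promoters: GGGGATT followed by any base and CC for the κB element bound by NF-κB, AANNGAAA for the interferon-stimulated element bound by IRF factors, TGNTGAC for the X2 box bound by ATF1/CREB factors, and CCAAT for the Y box bound by NF-Y. Capitals mark the matches, written 5′ to 3′ on the gene's own strand, so that a match on the other strand appears as its reverse complement.
H2-Q7 (chr17:35439010-35439154, + strand): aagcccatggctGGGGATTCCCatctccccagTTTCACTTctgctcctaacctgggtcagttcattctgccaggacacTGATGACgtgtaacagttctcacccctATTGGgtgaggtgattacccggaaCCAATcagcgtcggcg
H2-Q6 (chr17:35424665-35424811, + strand): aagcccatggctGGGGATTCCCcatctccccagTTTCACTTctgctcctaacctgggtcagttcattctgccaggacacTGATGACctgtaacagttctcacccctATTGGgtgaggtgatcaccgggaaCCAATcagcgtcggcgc
H2-K1 (chr17:34000334-34000470, − strand): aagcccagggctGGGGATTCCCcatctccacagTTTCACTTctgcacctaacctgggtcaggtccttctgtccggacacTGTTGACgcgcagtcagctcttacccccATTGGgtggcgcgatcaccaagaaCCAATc
H2-D1 (chr17:35262911-35263057, + strand): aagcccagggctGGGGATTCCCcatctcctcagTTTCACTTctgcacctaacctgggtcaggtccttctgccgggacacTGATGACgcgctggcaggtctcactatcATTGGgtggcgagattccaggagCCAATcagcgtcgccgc
H2-T23 (chr17:36032702-36032837, − strand): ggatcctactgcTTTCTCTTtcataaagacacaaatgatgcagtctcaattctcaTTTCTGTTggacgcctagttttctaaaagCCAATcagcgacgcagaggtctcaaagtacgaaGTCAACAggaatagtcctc
B2m (chr2:122147538-122147650, + strand): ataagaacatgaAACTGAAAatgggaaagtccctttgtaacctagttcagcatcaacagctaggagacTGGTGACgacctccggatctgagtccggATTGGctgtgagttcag

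In H2-Q7, H2-Q6, H2-K1 and H2-D1 the motifs stood in one order, κB, interferon-stimulated element, X2 and Y, and no match overlapped another. H2-Q4 carried the same series. Of 32851 promoter windows of this length, 79 (0.24%) held the κB letters, 6999 (21.3%) the interferon-stimulated letters, 3839 (11.7%) the X2 letters and 11120 (33.8%) the Y letters. All 4 motifs were found in 7 windows (0.0213%), among them those of these 5 genes. B2m, H2-T22, H2-T23 and H2-M3 held the other motifs without the κB letters, and H2-T23 held its X2 letters on the opposite strand, nearest to the start. H2-Q6 and H2-Q7 shared 142 of 145 aligned bases of the printed stretches. They differed by C87G, C122T and G126C, with the H2-Q6 base first and positions counted from 1 at the first printed base of H2-Q6. They also differed by an H2-Q6 base at position 20 without a partner in H2-Q7. The last printed base of H2-Q6, at position 147, was unpaired only because the H2-Q7 stretch ends at the edge of the searched window. The substitutions lay outside the capitals, but C87G is the base directly after the X2 letters. The X2 letters searched do not cover that base, so a difference at the edge of this site is not excluded. The unpaired base at position 20 was placed in the run of C in which the κB letters of H2-Q6 end, and both genes hold the full κB letters. Letters in a window are a description and not evidence of binding.

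Per exon length, the light chain was the most abundant transcript of the set. B2m averaged 4270 ± 531 TPM over the 10 libraries, H2-D1 1810 ± 158 TPM and H2-K1 1410 ± 224 TPM (SD). The non-classical heavy chains were far less abundant. H2-T23 averaged 202 ± 52.3 TPM, H2-Q6 172 ± 42.8 TPM, H2-Q4 153 ± 31.4 TPM, H2-M3 133 ± 18.5 TPM, H2-Q7 94.1 ± 37.2 TPM and H2-T22 78.4 ± 9.47 TPM. Nlrc5, at 28.5 ± 11 TPM, was lowest in all 10 libraries. Each gene exceeded the next in this order in all 10 libraries, except H2-T23 over H2-Q6 (6 of 10), H2-Q6 over H2-Q4 (9 of 10) and H2-Q7 over H2-T22 (7 of 10), so the order within those pairs is not firm. H2-K1 and H2-D1 together made up 78.0 ± 0.859% of the summed heavy-chain level in C57BL/6J recipients and 81.2 ± 1.23% in Rag2-/-γc-/- recipients (SD, n = 5 each). The 8 heavy chains summed to 0.986 ± 0.0618 of the B2m level in C57BL/6J recipients and to 0.923 ± 0.0928 in Rag2-/-γc-/- recipients. The order and these sums depend on the lengths used, which join all annotated exons of a gene. They were 860 bases for B2m, 2579 for H2-D1, 2938 for H2-K1, 1438 for H2-M3 and 4265 for H2-Q7. By CPM, H2-D1 (1700 and 1740 in C57BL/6J and Rag2-/-γc-/- recipients) averaged above B2m (1370 and 1350). Likewise H2-Q7 (195 and 99.4 CPM) averaged above H2-M3 (70.7 and 70.9 CPM).

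Between recipients, 3 of the 10 genes were higher in C57BL/6J and none was lower, against 3.32% higher and 4.47% lower over all tested genes. In 2 of them every C57BL/6J library lay above every Rag2-/-γc-/- library and in none below, against 4.13% above and 4.37% below over all tested genes. The 3 that were called were H2-Q7, Nlrc5 and H2-T23. Of the other 7, 5 had log2 fold changes between -0.04 and 0.22, and H2-Q6 and H2-T22 were at 0.44 and 0.26. The median over the 10 was 0.24. The number lower was also 0 by DESeq2, by limma-voom and by limma-voom with quality weights, against 6.90%, 4.05% and 23% of all tested genes. The numbers higher were 3, 3 and 6 in the same order, against 5.51%, 3.45% and 23.7%. At an unadjusted p under 0.05 in edgeR, 5 were higher and 0 lower, against 11.5% and 14.1% of all tested genes.

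**Figure D1:**
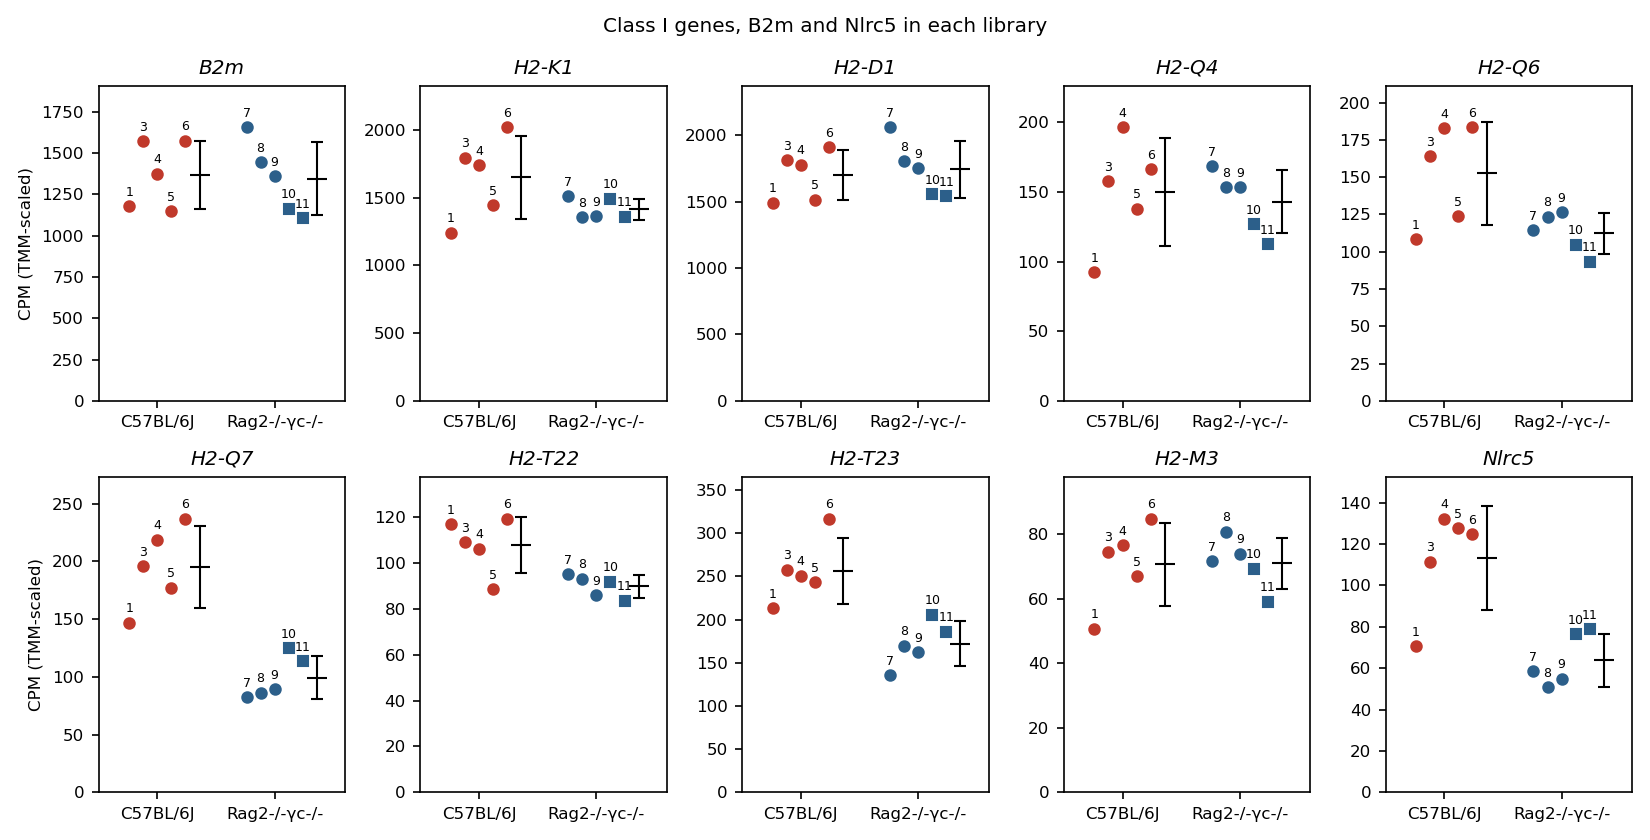
CPM (TMM-scaled, axes from 0) of each of the 10 genes in the 5 C57BL/6J libraries (red) and the 5 Rag2-/-γc-/- libraries (blue, with squares for libraries 10 and 11), numbered as in the labels; bars give mean ± SD. The groups do not overlap for H2-Q7 and H2-T23, whereas for B2m, H2-D1, H2-Q4 and H2-M3 the 2 groups cover much the same range.

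H2-Q7 encodes a heavy chain of the Qa-2 antigen, a non-classical molecule found on most haematopoietic cells of the C57BL/6 strain. It was at 147, 196, 219, 177 and 237 CPM in C57BL/6J recipients 1, 3, 4, 5 and 6, against 82.6, 86.5, 89.4, 125 and 114 CPM in Rag2-/-γc-/- recipients 7 to 11. Every C57BL/6J library lay above every Rag2-/-γc-/- library, as was true of 4.13% of all tested genes in this direction, and within the Rag2-/-γc-/- group libraries 10 and 11 were the highest. The fold change was 1.96 (95% interval 1.55 to 2.48; log2 0.97 ± 0.15 SE; edgeR adjusted p = 0.00338). The call held when any 1 library was left out (adjusted p up to 0.0133). It did not hold without Rag2-/-γc-/- libraries 7, 8 and 9, where H2-Q7 stood at log2 0.71 (adjusted p = 0.101). Leaving out libraries 10 and 11 gave 1.18 (adjusted p = 0.00053).

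H2-T23 encodes Qa-1, which presents leader peptides of other class I chains to the NKG2A receptor of NK and CD8+ T cells. Its levels were 213, 258, 251, 243 and 317 CPM in C57BL/6J recipients 1, 3, 4, 5 and 6, against 136, 170, 163, 206 and 186 CPM in Rag2-/-γc-/- recipients 7 to 11. The groups did not overlap, with C57BL/6J library 1 and Rag2-/-γc-/- library 10 closest to each other. The fold change was 1.49 (95% interval 1.22 to 1.81; log2 0.58 ± 0.13; edgeR adjusted p = 0.0206). The call was lost without C57BL/6J library 6 (adjusted p = 0.0538), Rag2-/-γc-/- library 8 (adjusted p = 0.0538) or library 9 (adjusted p = 0.0604). It was also lost without libraries 7, 8 and 9 together (log2 0.39, adjusted p = 0.304).

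Nlrc5 was at 70.6, 112, 132, 128 and 125 CPM in C57BL/6J recipients 1, 3, 4, 5 and 6, against 58.4, 50.8, 54.9, 76.3 and 78.9 CPM in Rag2-/-γc-/- recipients 7 to 11. The groups overlapped: C57BL/6J library 1 lay below Rag2-/-γc-/- libraries 10 and 11, while the other 4 C57BL/6J libraries lay above all 5. The fold change was 1.78 (95% interval 1.35 to 2.34; log2 0.83 ± 0.18; edgeR adjusted p = 0.0192). As for H2-T23, the call was lost without C57BL/6J library 6 (adjusted p = 0.0522), Rag2-/-γc-/- library 8 (adjusted p = 0.0522) or library 9 (adjusted p = 0.0566), and without 7, 8 and 9 together (log2 0.55, adjusted p = 0.332). Without libraries 10 and 11 it was 1.05 (adjusted p = 0.0025). The deposited table gives Nlrc5 the type lincRNA and starts the gene at position 94472763 of chromosome 8, whereas GENCODE M21, on the same build, has a protein-coding gene from 94434356 to 94527272, so the counts may cover the later exons alone and the level per length may be too low.

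The classical heavy chains and the light chain did not pass the threshold. H2-K1 was at 1242, 1797, 1742, 1446 and 2022 CPM in C57BL/6J recipients 1, 3, 4, 5 and 6, against 1510, 1355, 1364, 1493 and 1360 CPM in Rag2-/-γc-/- recipients 7 to 11. The C57BL/6J libraries held both the lowest and the highest value and spread more widely, with a coefficient of variation of 18.6% against 5.52%. The log2 fold change of H2-K1 was 0.22 (95% interval -0.05 to 0.49; edgeR adjusted p = 0.278). H2-D1 was at 1491, 1811, 1778, 1514 and 1909 CPM in C57BL/6J recipients, in the same order, against 2061, 1805, 1753, 1554 and 1540 CPM in Rag2-/-γc-/- recipients. B2m was at 1177, 1570, 1375, 1149 and 1575 CPM in C57BL/6J recipients, against 1657, 1444, 1360, 1163 and 1105 CPM in Rag2-/-γc-/- recipients. The ranges of the 2 groups overlapped widely for both genes, with intervals of the log2 fold change of -0.27 to 0.20 for H2-D1 and -0.27 to 0.32 for B2m (edgeR adjusted p = 0.856 and 0.92). In bulk libraries such as these, fewer cells of a type and less RNA per cell cannot be told apart.

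H2-Q6, the neighbour of H2-Q7 and likewise a Qa-2 gene, was at 109, 164, 183, 124 and 184 CPM in C57BL/6J recipients, against 115, 124, 127, 105 and 93.2 CPM in Rag2-/-γc-/- recipients. Its 2 lowest C57BL/6J libraries, 1 and 5, lay within the Rag2-/-γc-/- range. The log2 fold change was 0.44 ± 0.16 (edgeR adjusted p = 0.108), past the threshold without C57BL/6J library 1 (adjusted p = 0.0346). H2-T22, whose product is a ligand of γδ T cell receptors, ranged from 88.3 to 119 CPM in C57BL/6J and from 83.4 to 95 CPM in Rag2-/-γc-/- recipients, with a log2 fold change of 0.26 ± 0.09 (edgeR adjusted p = 0.104), past the threshold without C57BL/6J library 5 (adjusted p = 0.0418). H2-Q4 ranged from 92.2 to 197 CPM in C57BL/6J and from 112 to 169 CPM in Rag2-/-γc-/- recipients. H2-M3, which presents N-formylated peptides, ranged from 50.7 to 84.8 CPM in C57BL/6J and from 59.1 to 80.8 CPM in Rag2-/-γc-/- recipients. Neither differed beyond its spread (95% interval of the log2 fold change -0.33 to 0.47 for H2-Q4 and -0.30 to 0.29 for H2-M3).

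**Figure D2:**
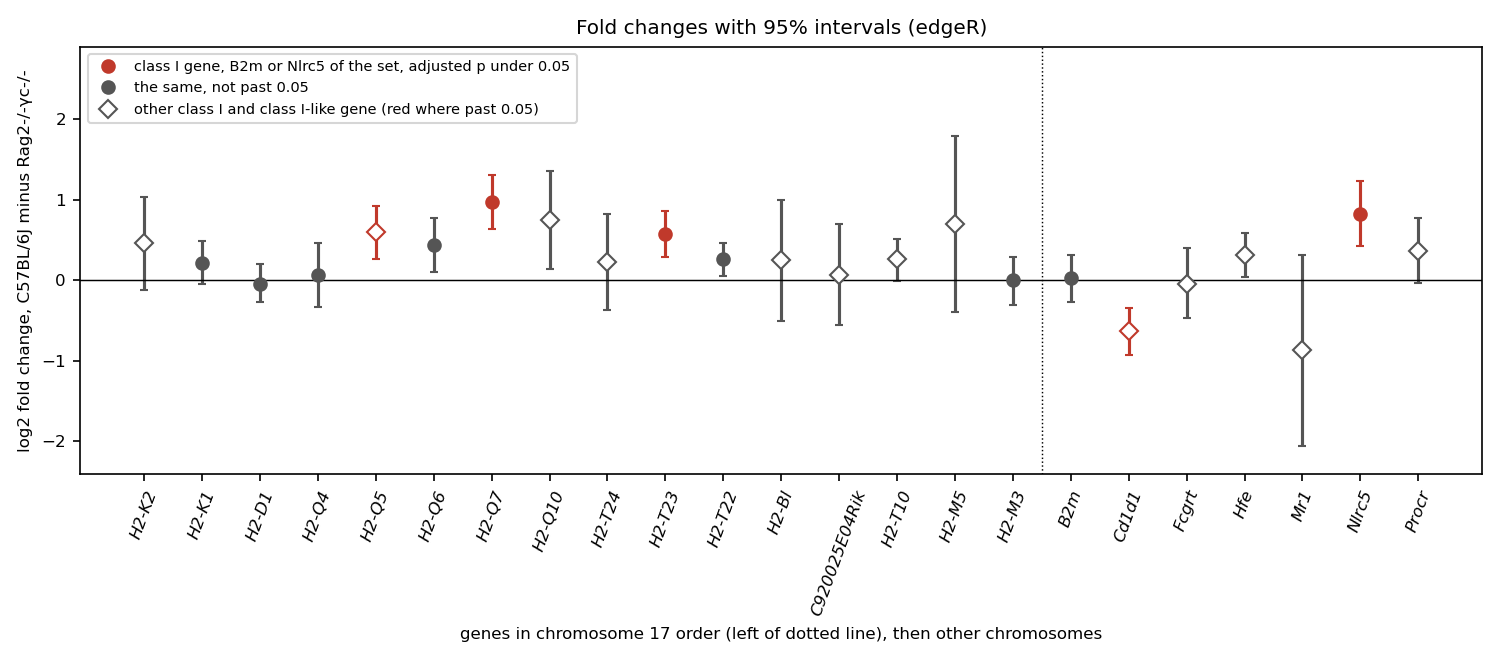
Log2 fold change (C57BL/6J minus Rag2-/-γc-/-) with 95% intervals from edgeR for the 10 genes (filled) and 13 other tested class I and class I-like genes (open), in order along chromosome 17 and then on other chromosomes; red marks an adjusted p under 0.05. H2-Q7 at 0.97, H2-T23 at 0.58 and H2-Q5 at 0.60 are the chromosome 17 genes past the threshold, and Cd1d1 at -0.63 is the one gene past the threshold below 0.

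The Rag2-/-γc-/- libraries did not vary together over the set. Nlrc5, H2-Q7 and H2-T23 were higher in each of libraries 10 and 11 than in each of 7, 8 and 9. B2m, H2-D1, H2-Q4, H2-Q6 and H2-M3 were lower in each of libraries 10 and 11 than in each of 7, 8 and 9. These subsets were recognised from the data, so this is given without a test. For the 3 genes called higher in C57BL/6J recipients, libraries 10 and 11 were thus the Rag2-/-γc-/- libraries closest to the C57BL/6J values.

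Ratios within a library do not depend on scaling between libraries, and 4 were compared by a two-sided exact permutation test over all assignments of the libraries to groups, for which the smallest possible p is 0.00794. H2-Q7 over H2-K1 was 0.118, 0.109, 0.126, 0.123 and 0.117 in C57BL/6J recipients 1, 3, 4, 5 and 6, against 0.0547, 0.0639, 0.0656, 0.0837 and 0.0834 in Rag2-/-γc-/- recipients 7 to 11. All C57BL/6J ratios lay above all Rag2-/-γc-/- ratios, a 1.71-fold difference (exact permutation p = 0.00794, adjusted over 4 ratios 0.0317). H2-Q7 thus differed between the recipients by more than H2-K1 did, and without libraries 7, 8 and 9 the difference was 1.42-fold, with the groups still apart (exact permutation p = 0.0476, the smallest that 5 against 2 libraries can give, so that a single ratio cannot pass after adjustment over 4; adjusted 0.19). H2-K1 over H2-D1 was 1.18-fold higher in C57BL/6J (exact permutation p = 0.0556, adjusted 0.111), with an adjusted p of 0.0476 without C57BL/6J library 1 or without Rag2-/-γc-/- library 10 and of 0.0238 without libraries 10 and 11. H2-K1 over B2m was 1.13-fold higher (exact permutation p = 0.151, adjusted 0.201) and H2-D1 over B2m 0.958-fold (exact permutation p = 0.23, adjusted 0.23).

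**Figure D3:**
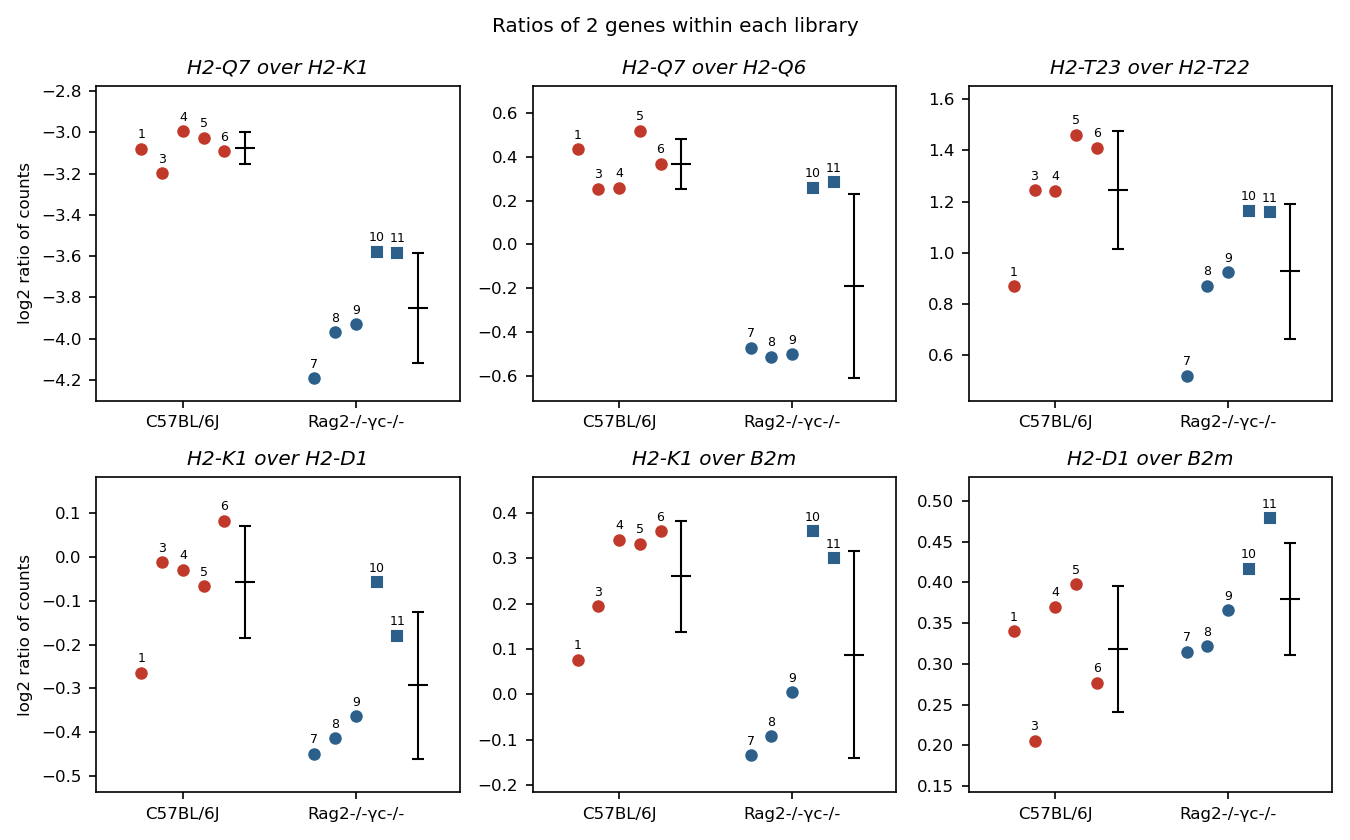
Log2 ratios of the counts of 2 genes within each library, for C57BL/6J (red) and Rag2-/-γc-/- recipients (blue, squares for libraries 10 and 11), numbered as in the labels, with mean ± SD. For H2-Q7 over H2-K1 every C57BL/6J library lies above every Rag2-/-γc-/- library, and for H2-Q7 over H2-Q6 libraries 10 and 11 lie among the C57BL/6J values.

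H2-Q6 and H2-Q7 stand 9100 bases apart with near-identical promoter stretches (above), and were compared after their values had been seen. H2-Q7 over H2-Q6 was 1.35, 1.19, 1.2, 1.43 and 1.29 in C57BL/6J recipients 1, 3, 4, 5 and 6, against 0.721, 0.701, 0.707, 1.2 and 1.22 in Rag2-/-γc-/- recipients 7 to 11. H2-Q7 counts exceeded those of H2-Q6 in every C57BL/6J library and in Rag2-/-γc-/- libraries 10 and 11, and fell short of them in 7, 8 and 9. The 1.47-fold difference did not pass after adjustment over 6 ratios (exact permutation p = 0.0397, adjusted 0.0952), and was 1.82-fold without libraries 10 and 11 and 1.07-fold without 7, 8 and 9. H2-T23 over H2-T22, whose genes are 4273 bases apart, was 1.25-fold higher in C57BL/6J recipients (exact permutation p = 0.0635, adjusted 0.0952). These close relatives share sequence, and the division of reads between them rests on the authors' estimates. Of 75-base windows in their transcripts, 17% in H2-Q7, 21.1% in H2-Q6 and 40% in H2-T22 were also found in other genes, against 5.91% in H2-T23, 3.1% in H2-K1, 5.56% in H2-D1 and none in B2m or H2-M3. With the counts of H2-Q6 and H2-Q7 summed, the log2 fold change was 0.72 ± 0.13 (edgeR adjusted p = 0.00787). Their relatives H2-Q8 and H2-Q9 were not matched in the deposited table and are not in this sum. Whether the counts of H2-Q6 and H2-Q7 hold reads of such relatives was not tested.

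Nlrc5 was set beside the genes it is known to activate. After each group's mean was taken out, log2 CPM of Nlrc5 and H2-Q7 had a Pearson r of 0.847 over the 10 libraries (0.756 without the 2 libraries farthest from the median of Nlrc5, C57BL/6J 1 and Rag2-/-γc-/- 8). The r was 0.64 for H2-T23 (0.614 without them), 0.59 for H2-K1 (-0.018 without them, so it rests on those libraries), 0.357 for H2-Q4 (-0.414), 0.329 for H2-M3 (-0.306) and 0.238 for H2-Q6 (-0.377). It was -0.029 for H2-D1 (-0.582), -0.149 for B2m (-0.647) and -0.427 for H2-T22 (-0.202). H2-Q7 and H2-T23 were thus the 2 of the 9 with a positive r both with and without those libraries. By r to Nlrc5 over the 9064 genes compared, H2-Q7 ranked 310 and H2-T23 ranked 1327, so many genes outside the set had a higher r than either. Nlrc5, H2-Q7 and H2-T23 also shared the split within the Rag2-/-γc-/- group given above. Neither taking out the group means nor leaving out those 2 libraries removes this split. Its part in the r values was not tested. The 5 genes most like Nlrc5 of 9064 compared were Spns1 (r = 0.98), Edem1 (0.98), Pank4 (0.977), Ctif (0.975) and Adam17 (0.97), with 0.919 to 0.96 when the same 2 libraries were left out. None of these 5 passed the threshold between recipients (log2 fold changes 0.00 to 0.15 in size). For H2-K1 the 5 were Lemd2 (0.979), Gcnt1 (0.974), the peptide transporter gene Tap1 (0.959), Reep4 (0.951) and Psap (0.948). The values within a library share its depth and scaling, and the r values are a description.

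**Figure D4:**
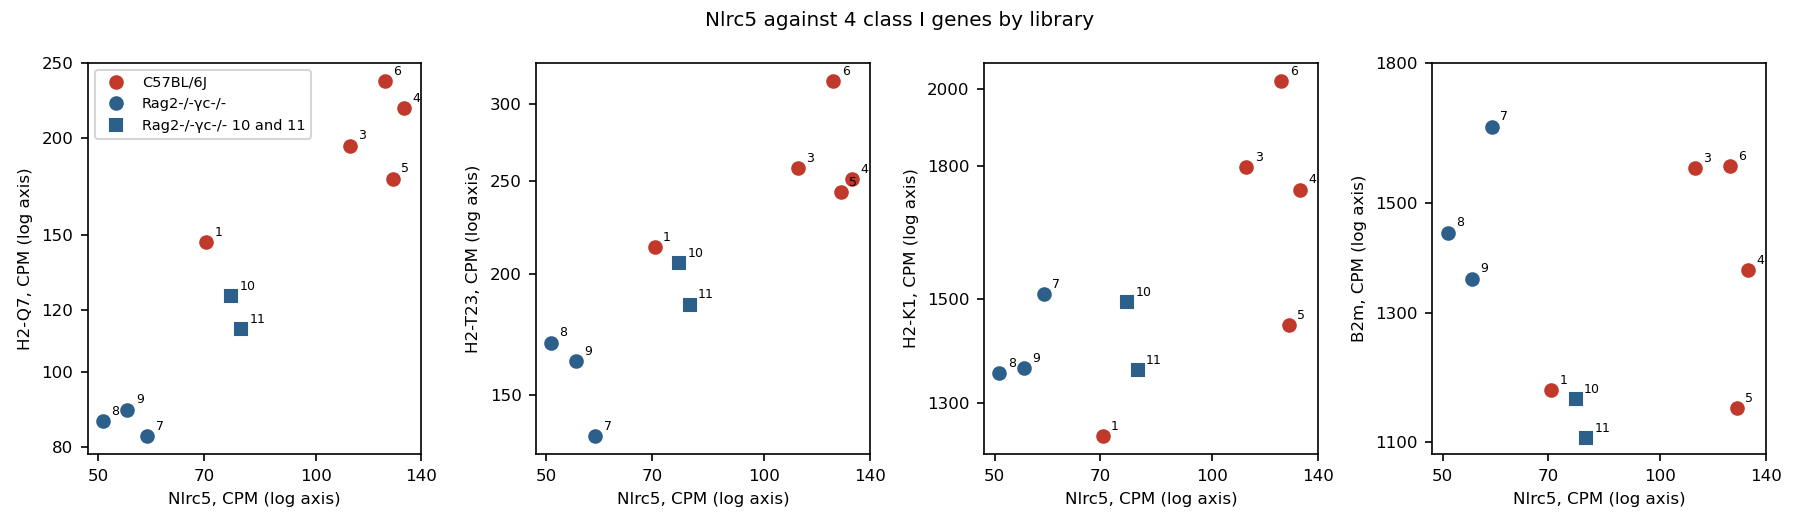
CPM of H2-Q7, H2-T23, H2-K1 and B2m against CPM of Nlrc5 in each library (both axes logarithmic), for C57BL/6J (red) and Rag2-/-γc-/- recipients (blue, squares for libraries 10 and 11), numbered as in the labels. H2-Q7 is lowest in libraries 7, 8 and 9, where Nlrc5 is also lowest, while B2m shows no such order.

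The other class I and class I-like genes were mostly low. Of 32 listed, 28 were matched and 13 passed the filter, with a median log2 fold change of 0.26. Of these, 1 was higher and 1 lower in C57BL/6J recipients, against 3.32% and 4.47% of all tested genes. H2-Q5, annotated as a pseudogene in the table and 8836 bases beyond H2-Q4, averaged 27.5 against 18.2 CPM in C57BL/6J and Rag2-/-γc-/- recipients (log2 0.60; edgeR adjusted p = 0.037, lost in 7 of 10 fits that left out 1 library, namely C57BL/6J 3, 4, 5 or 6 or Rag2-/-γc-/- 7, 8 or 9, at up to 0.0978, and 0.357 without the last 3 together). Of the 75-base windows of the more abundant H2-Q7, 8.88% were also found in H2-Q10 and 5.32% in H2-Q5. The part of H2-Q7 reads in the H2-Q5 counts was not tested. Cd1d1, which presents lipids to NKT cells, averaged 7.16 CPM in C57BL/6J and 11.1 CPM in Rag2-/-γc-/- recipients (log2 -0.63; edgeR adjusted p = 0.0171, but 0.0507 without C57BL/6J library 6). Its call held without Rag2-/-γc-/- libraries 7, 8 and 9 (log2 -0.77, edgeR adjusted p = 0.0312) and without 10 and 11 (log2 -0.52, adjusted p = 0.0133). The 15 matched genes that did not pass the filter, among them H2-Q1, H2-Q2 and the H2-M10 genes, reached at most 0.247 CPM in any library. Gm11131, which overlaps H2-Q4 on the opposite strand, was at 5.17 against 3.91 CPM in C57BL/6J and Rag2-/-γc-/- recipients; without a statement on strand, reads of the overlap cannot be told apart. On the chromosome, AC128663.2 before Nlrc5 (log2 0.57, edgeR adjusted p = 0.0564), Cpne2 beyond it (-0.11), Ring1 beyond H2-K1 (0.15) and Ddx39b before H2-D1 (-0.08) did not pass the threshold. Olfr98, an olfactory receptor gene next to H2-M3, passed it at 0.539 against 0.13 CPM in C57BL/6J and Rag2-/-γc-/- recipients (log2 2.11; edgeR adjusted p = 0.0286, lost without C57BL/6J 4, 5 or 6 or Rag2-/-γc-/- 9, at up to 0.0755).

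Genes around class I were counted by list. Over all tested genes, edgeR called 3.32% higher and 4.47% lower, as given above. The shares were 19.3% and 17.4% without libraries 10 and 11, and 1.01% and 0.870% without 7, 8 and 9, so list counts from these fits move with those of all genes. They were 5.51% and 6.90% by DESeq2, 3.45% and 4.05% by limma-voom, 23.7% and 23% by limma-voom with quality weights, and 11.5% and 14.1% at an unadjusted p under 0.05 in edgeR.

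Of 16 genes that cut, transport and load class I peptides, 3 rose and none fell, with a median log2 fold change of 0.21. Psme1 and Psme2, which form the PA28 proteasome activator, were at log2 fold changes of 0.49 (edgeR adjusted p = 0.0296) and 0.36 (adjusted p = 0.0463). Psmb8, an immunoproteasome subunit, was at 0.56 (602 against 409 CPM in C57BL/6J and Rag2-/-γc-/- recipients; edgeR adjusted p = 0.0361). Each of the 3 lost its call in 4 or more of 10 fits that left out 1 library, for all 3 without C57BL/6J 6 or Rag2-/-γc-/- 7, 8 or 9, and for Psme2 also without C57BL/6J 1, 4 or 5 or Rag2-/-γc-/- 11 (adjusted p up to 0.124). The transporter genes Tap1 (0.09) and Tap2 (0.06) and the loading factor gene Tapbp (0.00) did not pass the threshold. The list's counts were 7 higher and 1 lower without libraries 10 and 11, and 0 and 0 without 7, 8 and 9.

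Of 14 genes of the factors that bind class I promoters and of chromatin cofactors, none passed in edgeR (median 0.03). At an unadjusted p under 0.05 edgeR had 1 higher and 2 lower, DESeq2 called 1 lower, limma-voom none, and limma-voom with quality weights 5 higher and 2 lower. The smallest p belonged to the coactivator gene Crebbp (log2 -0.59, edgeR adjusted p = 0.078), and the DNA-binding partners Rfx5, Rfxap and Rfxank were at 0.13, -0.03 and -0.08. Without libraries 10 and 11 the list had 4 higher and 1 lower, and without 7, 8 and 9 none.

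Of 16 genes of interferon and NF-κB signalling, pathways that induce class I, 2 rose and 3 fell (median -0.19). The list mixes parts with opposing roles, among them the inhibitor genes Socs1 (log2 0.63) and Socs3 (-0.76), neither past the threshold. Its counts and median therefore give no direction of signalling. Irf1, which binds the interferon-stimulated element, was at log2 0.68 (107 against 67.2 CPM in C57BL/6J and Rag2-/-γc-/- recipients; edgeR adjusted p = 0.0146). Ifnar2, a subunit of the type I interferon receptor, was at -0.54 (edgeR adjusted p = 0.00858). The NF-κB subunit gene Nfkb1 was at -0.34 (edgeR adjusted p = 0.0224, lost without C57BL/6J 3, 4 or 6 or Rag2-/-γc-/- 8 or 9, at up to 0.0685). The third that fell, named after its value was seen, was the kinase gene Jak1 at -0.48 (edgeR adjusted p = 0.0379, lost without C57BL/6J 3, 4, 5 or 6 or Rag2-/-γc-/- 7, 8 or 9, at up to 0.101). The counts were 3 higher and 7 lower without libraries 10 and 11, and 0 and 0 without 7, 8 and 9.

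Of 10 tested genes of class I turnover, none passed in edgeR, DESeq2 or limma-voom (median -0.10), with 1 higher and 1 lower at an unadjusted p under 0.05 in edgeR and 1 higher and 2 lower by limma-voom with quality weights. The smallest p was that of 4933426M11Rik, now called Susd6, whose product brings class I to degradation (log2 -0.37, edgeR adjusted p = 0.104). Without libraries 10 and 11 this list had 1 higher and 2 lower. Of 13 genes of receptors that read class I, 7 were tested and 1 was higher (median 0.55). Cd8a, the CD8 α chain, which dendritic cells also carry, was at 71.0 against 28.9 CPM in C57BL/6J and Rag2-/-γc-/- recipients (log2 1.30; edgeR adjusted p = 0.0161, but 0.2 without libraries 7, 8 and 9). T cell markers, 15 of 15 matched, summed to 2.96 to 55.0 CPM in C57BL/6J and 4.02 to 6.5 CPM in Rag2-/-γc-/- recipients, with Trac, Trbc1, Trbc2, Cd2, Cd28 and Themis at 0 in all Rag2-/-γc-/- libraries and at means of 0.584 to 1.8 CPM in C57BL/6J recipients. Of the 5 T cell markers that were tested, Zap70 was higher (1.23 against 0.0118 CPM in C57BL/6J and Rag2-/-γc-/- recipients; edgeR adjusted p = 0.00443), while Cd6, Cd247, Lck (3.14 against 1.36 CPM) and Cd5, which ran the other way (1.43 against 2.83 CPM), did not pass.

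**Figure D5:**
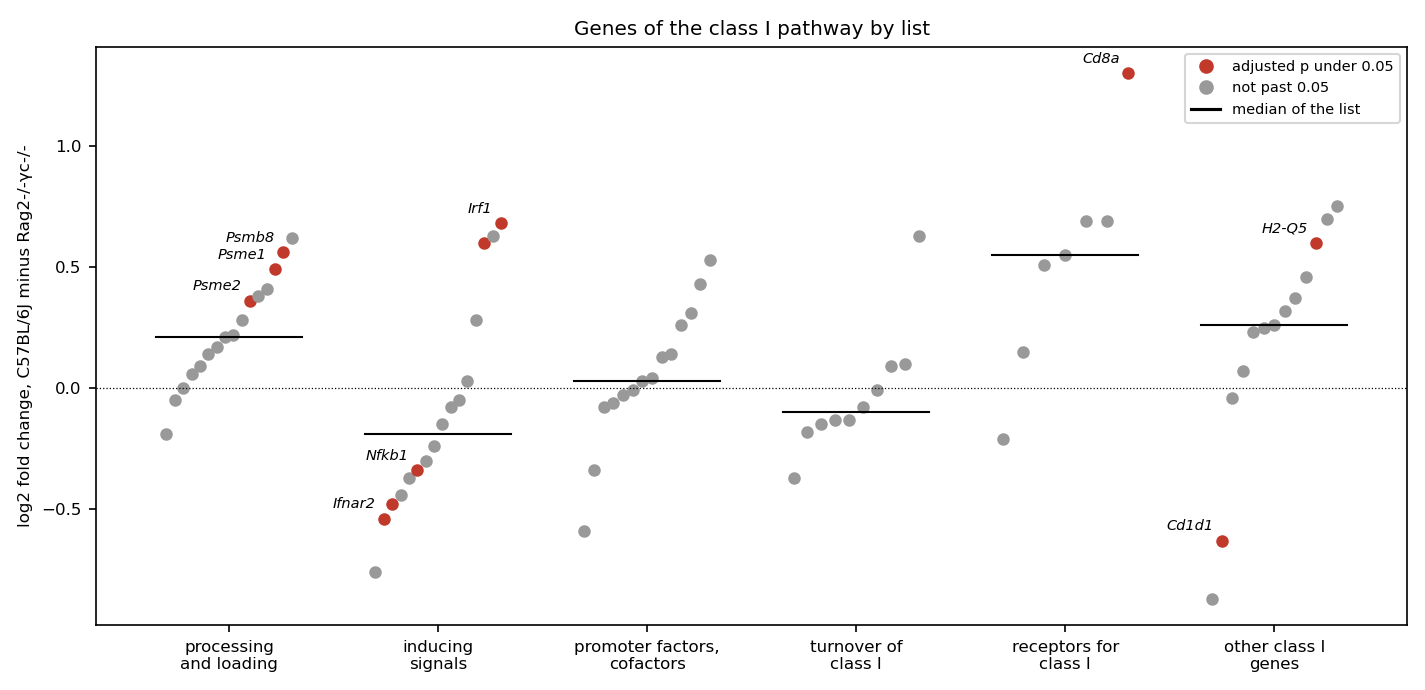
Log2 fold change (C57BL/6J minus Rag2-/-γc-/-, edgeR) of every tested gene of 6 lists around class I, with the median of each list as a line; red marks an adjusted p under 0.05, and named points are those given in the text. Red points stand above 0 for processing and loading, on both sides of 0 for the inducing signals and the other class I genes, and are absent for promoter factors and turnover.

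RNA of other cells was measured beside these genes, since class I is made by most nucleated cells. NK markers, 10 of 10 matched, summed to 14.8 to 22.1 CPM in C57BL/6J and 3.4 to 10.46 CPM in Rag2-/-γc-/- recipients (exact permutation p = 0.00794, adjusted over 8 lists 0.0635). Most of it was Klrk1 at 14.1 against 5.05 CPM (edgeR adjusted p = 0.0154). Ncr1, Gzma and Gzmb averaged 0.0824 to 0.797 CPM in C57BL/6J recipients and were at 0 in Rag2-/-γc-/- recipients. Klrb1c ran the other way (0.809 against 2.07 CPM in C57BL/6J and Rag2-/-γc-/- recipients, not past the threshold). Since Klrk1 was also counted in Rag2-/-γc-/- recipients, in which NK cells are missing, the NK sum does not measure NK cells alone. B and plasma cell markers, 10 of 11 matched, summed to 87.3 to 324 CPM in C57BL/6J and 60.0 to 161 CPM in Rag2-/-γc-/- recipients. Most of that sum was Ighm (107 against 100 CPM in C57BL/6J and Rag2-/-γc-/- recipients), but Igkc averaged 9.59 CPM in C57BL/6J recipients and was at 0 in all Rag2-/-γc-/- libraries (edgeR adjusted p = 0.0102), and Cd79a averaged 9.69 against 0.38 CPM (edgeR adjusted p = 0.032, lost without C57BL/6J 6 or Rag2-/-γc-/- 7, 8, 9 or 11, at up to 0.0813). Ms4a1 (4.87 against 0.299 CPM) and Pax5 (1.79 against 0.201 CPM) did not pass. Erythroid markers, 9 of 10 matched, summed to 14.9 to 146 CPM in C57BL/6J and 74.4 to 242 CPM in Rag2-/-γc-/- recipients. Megakaryocyte markers summed to 7.02 to 12.1 CPM in C57BL/6J and 1.8 to 7.19 CPM in Rag2-/-γc-/- recipients, and macrophage, neutrophil and endothelial sums overlapped. Single markers in these lists went both ways. Itga2b was called higher in C57BL/6J (7.53 against 2.13 CPM; edgeR adjusted p = 0.00187), while Pf4 averaged 1.25 against 2.2 CPM. Timd4 (edgeR adjusted p = 0.0301) and Col1a1 (0.00924) were also called higher, but not without libraries 7, 8 and 9. The other macrophage markers had negative log2 fold changes, none called. None of the 8 lists passed the threshold after adjustment (exact permutation, adjusted p 0.0635 to 0.54), but the NK sums did not overlap, and the smallest possible p of 0.00794 cannot pass for a single list of 8. C57BL/6J library 1 had the highest T cell (55.0 CPM), B cell (324 CPM), erythroid (146 CPM) and macrophage (211 CPM) sums of its group. Its megakaryocyte (7.02 CPM) and neutrophil (3.94 CPM) sums were the lowest of the group. Its values of Nlrc5 and of every heavy chain of the set but H2-T22 were also the lowest of the group, while those of H2-T22 and B2m were not. The part of these cells in the differences was not tested.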

How the data were processed

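Poly(A)-selected RNA of GFP+ splenocytes was sequenced as single reads from NEBNext Ultra libraries, per the labels' protocols. The authors deposited 1 table of expected counts per gene for the 10 libraries, with no normalisation. Cutadapt 1.11, STAR 2.5.2a, RSEM 1.2.30, edgeR and build GRCm38 are named, per the submitters' processing notes. Settings and gene models were not given in the sources used here. RSEM-type counts share a read among all genes it matches, and nothing states whether the libraries keep strand. They were rounded to whole numbers before testing (15.3 to 17.3% of values per library were not whole). All 20 pairs of libraries of the same group differed by more than sampling noise (chi-square over degrees of freedom 8.13 to 188).

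The test was edgeR 4.0.16 (R 4.3.3): TMM, filterByExpr (minimum count 10, minimum total 15), the quasi-likelihood F test with a group term, and Benjamini-Hochberg adjustment over 13966 genes at 0.05. A positive log2 fold change means higher in C57BL/6J recipients. Levels per length (TPM) used exon lengths of GENCODE M21, in which 36429 of 38215 genes (95.3%) were found. Alternatives were RLE and upper quartile scaling, TMM without class I genes, DESeq2 1.42.0, limma-voom (limma 3.58.1) with and without quality weights, other count filters, robust dispersion, summed paralogs, and leaving out libraries. The ratios H2-Q7 over H2-Q6 and H2-T23 over H2-T22 and the list counts without libraries were added after the values were seen.

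The 10 genes and all lists were chosen with earlier results of these data known. Named were all 10 genes, up to 4 called genes of each list or the 1 with the smallest p, the 5 genes most like Nlrc5 and H2-K1 (mean of at least 5 CPM, predicted genes left out), and neighbours on the chromosome, of which those that bear on a result are given. A gene that this rule names is not reported here.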

Additional observations from a re-analysis of the deposited data

How the results depend on the processing

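Besides leaving out single libraries, 12 settings were tried for each of the 10 genes (11 for H2-Q6, which has no value of its own where paralogs are summed), and 107 of 119 gene and setting pairs kept their direction and their side of the threshold. H2-Q7, H2-T23 and Nlrc5 kept theirs in all but the fit without Rag2-/-γc-/- libraries 7, 8 and 9, where their log2 fold changes were 0.71, 0.39 and 0.55. With sample quality weights H2-K1 (0.31), H2-Q6 (0.40) and H2-T22 (0.23) passed the threshold. B2m (-0.12) and H2-Q4 (-0.075) changed sign without libraries 10 and 11, H2-D1 (0.14) and H2-M3 (0.14) without 7, 8 and 9, and H2-M3 also with upper quartile scaling (0.0098) and with no count filter (0.0082). Without 10 and 11 the log2 differences of H2-K1 over H2-D1 (0.35) and over B2m (0.33) passed the threshold; without 7, 8 and 9, H2-K1 over B2m was at -0.069 and H2-Q7 over H2-K1 at 0.50, where 5 against 2 libraries cannot bring a single ratio past the threshold after adjustment. Genes higher and lower in C57BL/6J numbered 966 and 1209 by DESeq2, 3306 and 3217 with quality weights, 2786 and 2518 without 10 and 11, and 148 and 127 without 7, 8 and 9. The cause was not tested.

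Leaving out 1 library at a time gave 275 to 1076 genes higher and 304 to 1323 lower, with the highest counts without Rag2-/-γc-/- library 10 and the lowest without C57BL/6J library 6. Log2 fold changes then ranged from -0.038 to 0.11 for B2m, -0.079 to 0.027 for H2-D1, -0.044 to 0.21 for H2-Q4, -0.076 to 0.096 for H2-M3, 0.37 to 0.54 for H2-Q6, 0.23 to 0.33 for H2-T22, 0.49 to 0.65 for H2-T23, 0.76 to 0.96 for Nlrc5 and 0.89 to 1.07 for H2-Q7, and from 0.20 to 0.29 for H2-K1 over H2-D1. No paired analysis was possible because the replicate numbers of the labels differ between the groups. At these depths every one of the 10 genes had well over the minimum count, so the spread between recipients, not counting error, limits the comparisons; close paralogs are limited by the division of reads.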
